A study of Mus musculus with 12 samples.

Results

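The step from circadian time (CT) 4 to CT8, in the middle of the rest phase of mice, was described in urinary bladder by setting the 2 arrays titled CT8 against the 2 titled CT4, 4 of the 12 arrays in the series. Both groups came from female C57BL/6 wild-type mice, 10 weeks old, which spent 2 weeks in a cycle of 12 h light and 12 h dark before they were moved to constant darkness. Circadian time counts hours of the mouse's own day, with CT0 to CT12 the subjective day, when mice rest. The labels give neither the days spent in darkness nor whether an array held RNA of 1 mouse, so a p-value weighs a difference against the spread between arrays, which may be technical. The study sampled 6 times, 4 h apart and 2 arrays each, and asked whether the bladder holds a clock and whether the gap junction protein encoded by Gja1 follows it.

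The times compared lie on different slides. Both CT4 arrays were at positions 3 and 4 of slide 1, beside the CT0 arrays, and both CT8 arrays at positions 1 and 2 of slide 2, beside the CT12 arrays. For the difference itself, time therefore cannot be told apart from slide or from position on the slide. Values of 2 other kinds that stay within a slide are given beside it: the neighbouring steps from CT0 to CT4 and from CT8 to CT12, and the CT4 to CT8 step of a 24 h wave fitted to all 12 arrays with slide as a fixed block. That wave rests on differences inside each slide and holds only as far as a gene follows a 24 h cosine. On every slide the earlier time lay at positions 1 and 2 and the later time at positions 3 and 4. A step within a slide therefore cannot be told apart from position, and the wave has no term for position. In those neighbouring steps Nr1d1 (CT0 to CT4) was the one gene past the adjusted threshold explained below, 0.00544% of those tested, and 0% passed from CT8 to CT12. The neighbouring steps and the wave use the same CT4 and CT8 arrays as the difference, so they are not independent of it. A CT8 reading that is low by itself lowers the difference and raises the step to CT12.

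Mammalian cells keep time with a feedback loop of transcription. The activators BMAL1 (gene Arntl), CLOCK and NPAS2 bind E-box sequences and switch on their own repressors, the PER and CRY proteins, together with REV-ERB alpha and beta (genes Nr1d1 and Nr1d2) and output genes such as Dbp. REV-ERB proteins in turn repress Arntl, Npas2 and Nfil3 through ROR elements (ROREs), and the PAR-bZIP factors DBP, TEF and HLF activate D-box genes that the repressor NFIL3 holds down. In mouse tissues the E-box outputs are known to climb through the subjective day while Arntl declines.

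Promoter sequences of clock-list genes that differed are shown first, because they carry the elements through which these activators and repressors are known to act. The 250 bases before each start were searched on both strands in the RefSeq windows of GRCm38.p6, in which 13 of 16 genes higher at CT8 and 5 of 6 lower at CT8 (unadjusted p under 0.05) had an entry. The E-box CACGTG, which reads the same on both strands, lay in the windows of 5 of those 13 higher genes (Bhlhe41, Ciart, Per1, Tef and Tspan4). It lay in those of none of the 5 lower genes. Some genes have several windows. By window it was in 6 of 18 of the higher genes and 0 of 7 of the lower, against 6.02% of all 32851. The letters TAGGTCA, the core of a RORE, lay in the windows of 2 of the 5 lower genes (Leo1 and Nfil3) and of no higher gene. By window that was 2 of 7 and 0 of 18, against 2.23% of all windows. The genes come from lists of core clock genes, E-box and D-box outputs and RORE targets. Part of this split may therefore be built in by list membership. The D-box spellings TTATGTAA (0.819% of windows) and TTACGTAA (0.113%) were in none of these genes' windows. Capitals mark the motif, and each run reads in the direction of its gene. The Ciart stretch lies at chr3:95882240-95882371 on the minus strand, with E-boxes beginning 116, 58 and 44 bases before the start. Those of Per1 (chr11:69098756-69098815, plus strand, 166 bases before), Tef (chr15:81802519-81802578, plus, 127 bases before), Bhlhe41 (chr6:145865541-145865600, minus, 153 bases before) and Tspan4 (chr7:141476302-141476361, plus, 51 bases before) have 1 each. A second Tef window, not shown, also holds 1 E-box (chr15:81811249-81811308, plus, 138 bases before its start). The Nfil3 stretch (chr13:52981040-52981078, minus) has the RORE letters on the opposite strand, 12 bases before the start, and the Leo1 stretch (chr9:75441434-75441494, plus) has them 63 bases before it. A match is a description of letters and not of binding.
Ciart: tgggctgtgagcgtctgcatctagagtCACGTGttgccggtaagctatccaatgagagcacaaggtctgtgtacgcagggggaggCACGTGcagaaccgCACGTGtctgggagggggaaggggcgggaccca
Per1: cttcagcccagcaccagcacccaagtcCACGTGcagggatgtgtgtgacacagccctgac
Tef: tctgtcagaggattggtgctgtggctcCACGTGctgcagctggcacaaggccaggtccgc
Bhlhe41: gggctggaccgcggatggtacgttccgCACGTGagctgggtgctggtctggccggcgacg
Tspan4: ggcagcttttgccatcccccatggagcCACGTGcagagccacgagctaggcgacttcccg
Nfil3: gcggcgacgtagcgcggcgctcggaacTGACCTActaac
Leo1: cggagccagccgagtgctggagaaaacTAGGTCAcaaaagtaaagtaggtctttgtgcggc

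Across the bladder transcriptome the arrays of CT4 and CT8 were about as far apart as arrays of one time. The genes with the smallest p (Ciart, Arntl, Tef, Tspan4 and Nr1d2) were on the clock lists, which were chosen with earlier results of these data known. Among genes of the next smallest p, Nfil3 and Usp2 were on those lists, and Rbm3 and Smpdl3b were not. The SD of the log2 difference between 2 arrays over all genes was 0.454 within CT4 and 0.454 within CT8, and 0.377 to 0.543 between the times. Of 18390 genes tested, none passed the threshold on the adjusted p (limma, Benjamini-Hochberg, 0% called in either direction), and the smallest adjusted p was 0.114, for Ciart. An adjusted p, the only p printed for single genes here, is corrected for all genes tested. At an unadjusted p under 0.05, 589 genes were higher at CT8 (3.2% of those tested) and 629 lower (3.42%), 6.62% in all. Both CT8 arrays lay above both CT4 arrays for 3534 genes (19.2%) and below both for 2860 (15.6%), so that the times did not overlap for 34.8%. The mean difference reached 2-fold or more for 182 genes upward (0.99%) and 209 downward (1.14%), of which 36 and 77 also had an unadjusted p under 0.05. The median difference over all genes was 0.0085 (log2). The adjusted counts were 0 higher and 1 lower (Kndc1) without CT4 replicate 1, 2 and 1 (NAP123620-1 and Lrtm2, LOC545306) without CT8 replicate 1, and 1 and 1 (ENSMUST00000075784, Htr2b) without CT8 replicate 2. The unadjusted count of 1218 in both directions became 769 without CT8 replicate 1 and 2039 without CT8 replicate 2. An exact permutation test of 2 arrays against 2 cannot give a two-sided p below 0.333, so no gene was tested that way.

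The arrays themselves differed little. The share of spots well above background was 64.2% to 69.3% on these 4, no spot was saturated, and CT8 replicate 1 had the lowest share and the lowest 75th percentile of intensity (844 units) of all 12 arrays. Across genes, which are not independent replicates, CT4 replicate 2 and CT8 replicate 2 were more alike (r = 0.994) than the arrays within CT4 (0.991) or within CT8 (0.991). Urothelial markers (14 of 15 tested, summed linear level 1166 and 1236 at CT4, 1192 and 1230 at CT8) and smooth muscle markers (8 of 8, 1555 and 1487 at CT4, 1657 and 1436 at CT8) were present on every array, as the tissue label says.

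**Figure D1:**
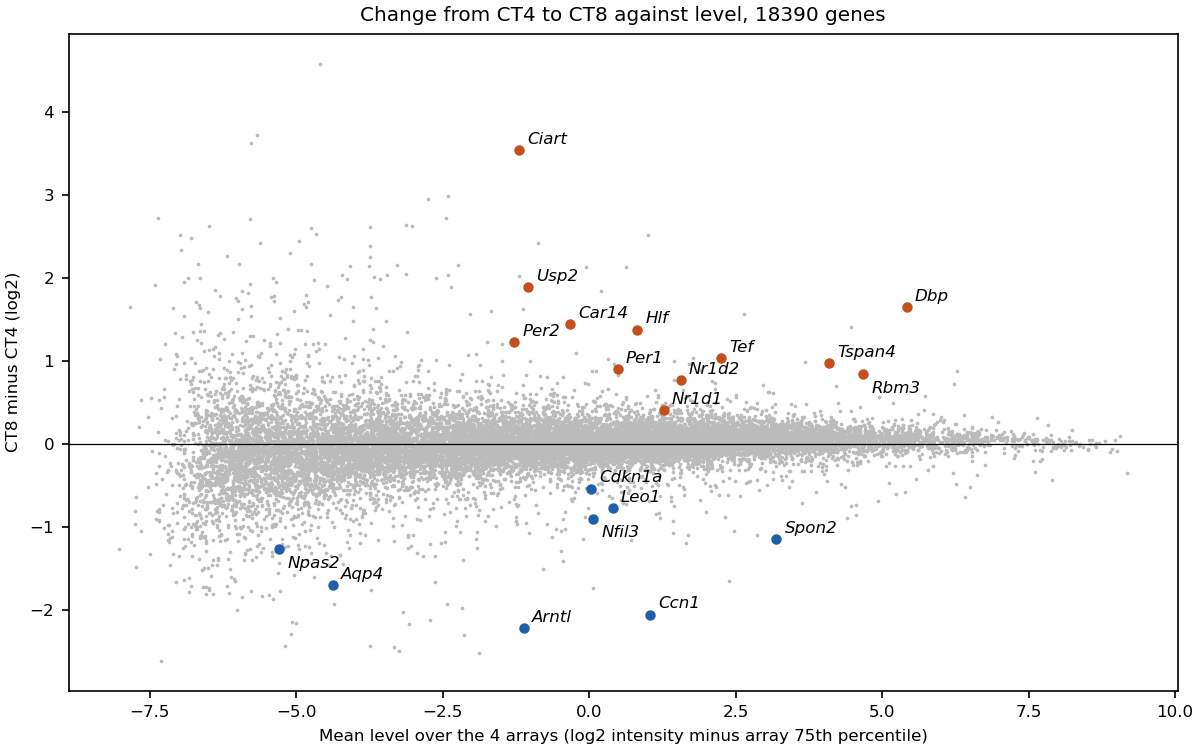
Difference CT8 minus CT4 (log2, vertical) against the mean level over the 4 arrays (log2 intensity minus the array's 75th percentile, horizontal) for all 18390 genes, each a grey point. Coloured points are named genes, orange where higher and blue where lower at CT8; Ciart (3.55) and Arntl (-2.23) lie far from the genes of like level, while the widest grey spread is among dim genes.

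In the activator arm of the loop, Arntl and Npas2 were lower at CT8, and Clock was lower by less. Levels are given throughout as log2 intensity minus the array's 75th percentile, so that 0 equals that percentile and 1 unit is a factor of 2. Arntl, which encodes BMAL1, measured 0.25 and -0.26 on the CT4 arrays and -2.45 and -2.02 on the CT8 arrays. Both CT8 values lay more than a log2 unit below both CT4 values, a difference of -2.23 ± 0.25 (SE, 2 arrays a time), or 4.69-fold lower (range 3.94 to 5.57 for 1 SE, limma adjusted p = 0.152). On the same slide as CT8, the CT12 arrays read -1.97 and -2.45, so Arntl had its low level on all 4 arrays of slide 2. The neighbouring differences were -0.48 from CT0 to CT4 and 0.02 from CT8 to CT12, and the wave fitted within slides gave -0.95 ± 0.22 for this step. In bulk tissue, fewer cells of a type and less RNA per cell cannot be told apart, for this gene and those that follow.

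Npas2, the BMAL1 partner that can stand in for CLOCK, measured -4.30 and -5.02 at CT4 and -5.94 and -5.91 at CT8, where 1 of 2 arrays was well above background. Its difference was -1.27 ± 0.32 (adjusted p = 0.519), with -0.55 ± 0.26 within slides. Clock itself, known for a weak rhythm, was lower by less, at 1.35 and 1.51 against 1.28 and 1.14. Its arrays did not overlap, with a difference of -0.22 ± 0.10 (adjusted p = 0.753). Its other 3 probes gave -0.14, -0.32 and -0.35, all in the same direction.

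Among the repressors, the PER genes were higher at CT8 and the CRY genes differed by less. Per2, whose protein forms the core of the repressor complex, read -2.19 and -1.59 at CT4 and -0.67 and -0.65 at CT8. The CT8 arrays were nearly identical and both higher, by 1.23 ± 0.24 or 2.35-fold (range 1.99 to 2.77, adjusted p = 0.356). The wave within slides gave almost the same step, 1.22 ± 0.20, and CT12 was a further 0.76 above CT8. A second, dim Per2 probe with levels between -5.47 and -4.82 gave 0.04 ± 0.23.

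Per1, its paralog, read 0.09 and -0.025 at CT4 and 0.82 and 1.05 at CT8, with no overlap. The difference was 0.90 ± 0.17, 1.87-fold (adjusted p = 0.354), against 1.03 ± 0.16 within slides, and a further 1.15 separated CT12 from CT8. Per3 was higher on average by 0.78 ± 0.34 (adjusted p = 0.753), but its arrays overlapped, with -5.90 and -5.31 at CT4 and -5.34 and -4.31 at CT8. The Per3 difference was 0.26 without CT8 replicate 2 and 1.30 without CT8 replicate 1. Cry1, the repressor that comes latest in the cycle, read -3.83 and -3.93 against -4.26 and -3.76, a difference of -0.13 ± 0.18 (adjusted p = 0.936). Without CT8 replicate 1 the Cry1 difference was 0.12, on a second probe 0.14, and within slides 0.38. Between CT8 and CT12 it was 1.11. Cry2 was 0.19 ± 0.10 higher (adjusted p = 0.823), without overlap, with a dim second probe at -0.22. Its step within slides was 0.40 ± 0.10.

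The REV-ERB genes differed in how much of their daily change fell into this step. Nr1d2, which encodes REV-ERB beta, read 1.11 and 1.25 at CT4 and 2.01 and 1.88 at CT8, so that both CT8 arrays were above both others. It was 0.76 ± 0.09 higher, or 1.70-fold (range 1.59 to 1.81, limma adjusted p = 0.166), and 1.02 ± 0.11 higher in the wave within slides. Nr1d1, which encodes REV-ERB alpha, read 0.99 and 1.14 at CT4 and 1.32 and 1.63 at CT8, a difference of 0.41 ± 0.16 (adjusted p = 0.731). That step was small beside its neighbours on either side: from CT0 to CT4 Nr1d1 rose by 1.92 (limma adjusted p = 0.0490), and from CT8 to CT12 it was lower by 1.46 (difference -1.46, adjusted p = 0.154). The other, dim Nr1d1 probes gave 0.15 and -0.0017.

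Of the 19 tested genes of the core clock list, 5 were higher and 3 lower at an unadjusted p under 0.05, against 3.2% and 3.42% of all genes, and none passed the adjusted threshold. The list's median difference was -0.00074, against 0.0085 over all genes. Within slides, 804 of 18390 genes were higher and 921 lower at an unadjusted p under 0.05. Within-slide counts of this and the later lists are read against these. Btrc, which encodes the ubiquitin ligase subunit that marks PER proteins for degradation, was one of the lower genes, with -2.09 and -1.92 against -2.43 and -2.32 (-0.37 ± 0.13, adjusted p = 0.697). With 1 array left out the counts were 4 to 6 higher and 2 to 5 lower, and within slides 9 and 1.

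**Figure D2:**
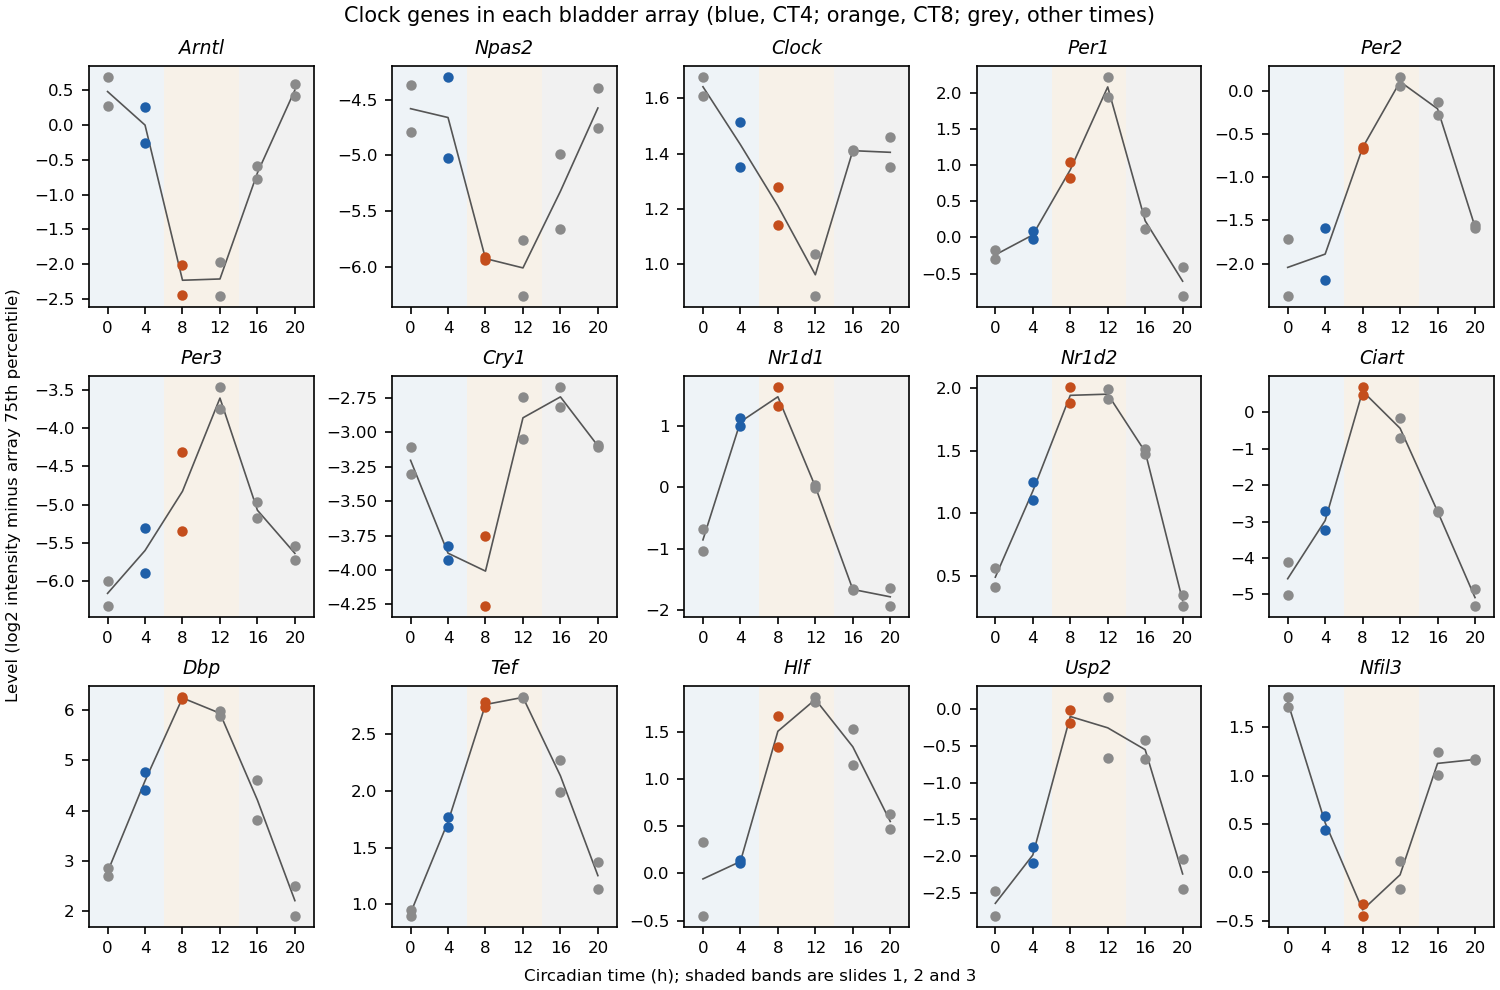
Level of 15 clock genes (log2 intensity minus the array's 75th percentile, vertical) on each array against circadian time in h (horizontal); points are arrays, lines join the means of 2 arrays, and shaded bands are the slides. CT4 (blue) and CT8 (orange) do not overlap for any gene shown except Per3 and Cry1; Arntl and Npas2 step down to the level that CT12 shares, while Per1 and Per2 lie on a climb that continues to CT12.

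Among the clock lists, an output gene differed most. Ciart, which encodes a repressor of the CLOCK and BMAL1 pair and is called Gm129 in the files (probe on chromosome 3, 95752460 to 95752519, mm7), read -3.23 and -2.71 at CT4 and 0.69 and 0.46 at CT8. The arrays of the times were separated by over 3 log2 units. The difference of 3.55 ± 0.33 was 11.7-fold (range 9.30 to 14.7 for 1 SE, limma adjusted p = 0.114). It was already 1.60 higher at CT4 than at CT0 and was 1.02 lower at CT12 than at CT8 (limma adjusted p = 0.301), which places its highest array mean at CT8. The within-slide wave gave 1.77 ± 0.38. This gene, the one with 3 E-boxes in its stretch above, passed the adjusted threshold with normexp background correction (adjusted p = 0.00281), in the authors' value table (0.00251), with no filter on dim probes (0.0493) and with an intensity trend in the variance prior (0.0292).

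The PAR-bZIP genes were higher together. Dbp read 4.41 and 4.77 at CT4 and 6.26 and 6.22 at CT8, a difference of 1.65 ± 0.28 or 3.13-fold (adjusted p = 0.289). The step before it was of like size, 1.81 from CT0 to CT4, and the step after it was -0.30. Tef (probe on chromosome 15, 81910893 to 81910952, mm7) read 1.69 and 1.77 at CT4 and 2.79 and 2.74 at CT8, so that arrays of one time nearly coincided. It was 1.03 ± 0.12 higher, 2.05-fold (range 1.89 to 2.22, limma adjusted p = 0.152), and its other 3 probes gave 0.47 to 0.68. Hlf read 0.14 and 0.11 against 1.67 and 1.34, a difference of 1.38 ± 0.25 (2.60-fold, adjusted p = 0.323). For Dbp, Tef and Hlf the within-slide steps were 1.84, 0.88 and 0.70.

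Usp2, which encodes a deubiquitinase that acts on clock proteins, was at -1.88 and -2.10 at CT4 and -0.01 and -0.18 at CT8. That is 1.89 ± 0.28 or 3.71-fold higher (adjusted p = 0.171), with 1.75 on a second probe and 1.30 ± 0.28 within slides. Tspan4, a membrane protein gene of the tetraspanin family, read 3.63 and 3.58 against 4.68 and 4.47. The difference was 0.97 ± 0.12 (1.96-fold, limma adjusted p = 0.166), and Tspan4 was a further 0.54 higher at CT12. Bhlhe41 and Bhlhe40 encode DEC2 and DEC1, repressors that compete for E-boxes. Bhlhe41 read -4.11 and -4.14 at CT4 and -3.32 and -2.86 at CT8, which was 1.04 ± 0.19 higher (adjusted p = 0.323), but its step within slides was 0.10 ± 0.15. Bhlhe40 was 0.57 ± 0.21 higher (adjusted p = 0.71) and 0.38 ± 0.18 within slides, with 0.30 without CT4 replicate 1 and 0.85 without CT4 replicate 2.

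The E-box and D-box output list had 21 tested genes and, like the other lists, was chosen with earlier results of these data known. Of the 21, 11 were higher and 1 lower at an unadjusted p under 0.05, against 3.2% and 3.42% of all genes. The list's median difference was 0.29 against 0.0085 for all genes. Both CT8 arrays were above both CT4 arrays for 14 of 21, against 19.2% of all genes. The remaining higher members differed by 0.73 ± 0.19 for Tsc22d3 (the glucocorticoid-induced leucine zipper gene, adjusted p = 0.569, other probes 0.68 and 0.71), 0.40 ± 0.15 for Herpud1 (adjusted p = 0.711) and 0.29 ± 0.12 for Klf13 (adjusted p = 0.745, 0.12 without CT8 replicate 1). Klf9, a Krüppel-like factor gene of the same list, was 0.18 ± 0.13 higher here (adjusted p = 0.872, 0.055 without CT4 replicate 2 and 0.30 without CT4 replicate 1). It was 0.58 higher in the step before, 0.38 higher here on a second probe and 0.75 ± 0.11 higher within slides. The 8 members not named differed by -0.04 to 0.24. Leave-one-out counts were 8 to 9 higher with 1 lower, and within slides 11 were higher and 1 lower. The one lower member was Leo1, a subunit gene of the PAF1 elongation complex, at 0.75 and 0.82 against -0.14 and 0.16. It was 1.71-fold lower (-0.78 ± 0.12, adjusted p = 0.213) and -0.37 ± 0.09 within slides; its stretch above carries TAGGTCA.

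Nfil3 and Cdkn1a were among the RORE targets that were lower. Nfil3, the D-box repressor gene (probe on chromosome 13, 52008023 to 52008082, mm7), read 0.59 and 0.44 at CT4 and -0.33 and -0.45 at CT8. All 4 values kept to their time, with a difference of -0.90 ± 0.13, 1.87-fold lower (adjusted p = 0.171), and -0.93 ± 0.13 on a second probe. The step within slides was smaller, -0.32 ± 0.17. The step before was also downward, -1.25 from CT0 to CT4 (limma adjusted p = 0.0850), and the next step to CT12 was 0.36. Cdkn1a, the p21 inhibitor of cyclin-dependent kinases, read 0.32 and 0.29 against -0.21 and -0.26, a difference of -0.54 ± 0.08 (1.46-fold lower, adjusted p = 0.171). Its 4 arrays of slide 1 lay between 0.29 and 0.52 and its 4 of slide 2 between -0.32 and -0.21, and its step within slides was -0.04 ± 0.08. Of the 15 tested RORE targets, 4 were lower and 1 higher at an unadjusted p under 0.05, against 3.42% and 3.2% of all genes. Within slides 5 were lower and 2 higher at that p, with a median of -0.15. In the reported fit the list's median was -0.20, against 0.0085 over all genes. That list median was 0.02 without CT8 replicate 1 and -0.38 without CT8 replicate 2.

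**Figure D3:**
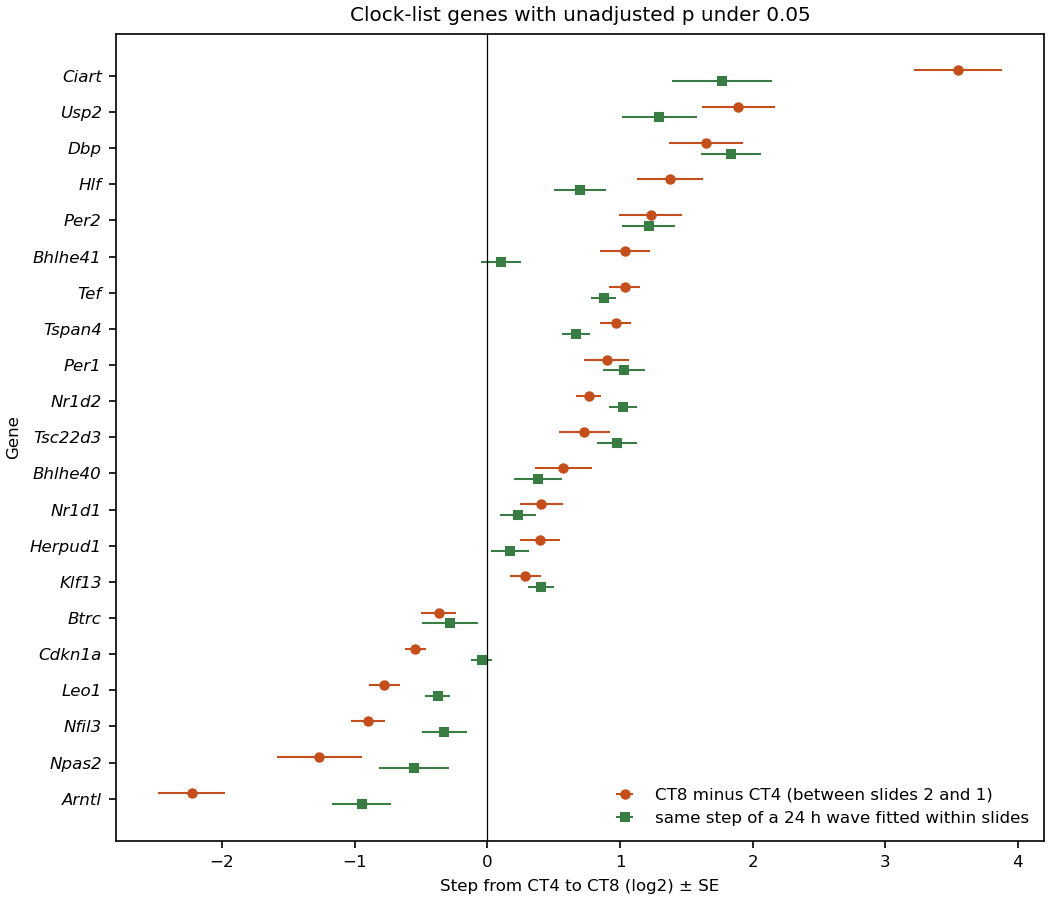
Step from CT4 to CT8 (log2, horizontal, bars ± 1 SE) for 21 of the 22 genes of the 3 clock lists with an unadjusted p under 0.05. Orange circles give the difference between the arrays, which crosses slides, and green squares the same step of a 24 h wave fitted within slides; every pair lies on the same side of 0, with the square near 0 for Bhlhe41 (0.10) and Cdkn1a (-0.04).

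Over all genes, clock lists included, 101 were higher (0.549% of genes tested) and 74 lower (0.402%) among named genes that were well above background on all 4 arrays, without overlap and at an unadjusted p under 0.01. The 12 largest of each side were taken. On the higher side, 8 of 12 were clock-list genes described above, from lists chosen with earlier results of these data known. Car14, a membrane carbonic anhydrase gene, read -0.83 and -1.26 at CT4 and 0.60 and 0.21 at CT8, 1.45 ± 0.24 or 2.73-fold higher (adjusted p = 0.289), with 0.80 ± 0.28 within slides. Smpdl3b, a lipid-modifying phosphodiesterase gene, was among the least variable, at -2.004 and -1.98 against -0.98 and -0.9996. It was 1.999-fold higher (0.999 ± 0.15, adjusted p = 0.171), 0.74 ± 0.13 within slides, and 0.77 higher again at CT12. Nat8, an N-acetyltransferase gene, was 0.99 ± 0.25 higher (adjusted p = 0.516), following a CT0 to CT4 difference of -0.96, and its step within slides was 0.02 ± 0.19.

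On the lower side, Arntl led and the other 11 were not clock-list genes. Spon2, which encodes the matrix protein spondin 2, read 3.58 and 3.96 at CT4 and 2.50 and 2.74 at CT8, 2.22-fold lower (-1.15 ± 0.28, adjusted p = 0.516). A second Spon2 probe gave -1.24, the next step to CT12 was -0.83, and the wave within slides gave -1.82 ± 0.24, larger than the difference itself. Gal3st4, a galactose sulfotransferase gene, was -0.98 ± 0.17 lower (adjusted p = 0.308) and -0.64 ± 0.16 within slides.

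The remaining 9 genes on the lower side had within-slide steps of -0.28 to 0.79, near 0 or of the other sign. Aqp4, a water channel gene, read -3.69 and -3.35 against -5.27 and -5.18 (-1.70 ± 0.44, adjusted p = 0.535), while its step within slides was 0.47 ± 0.35. Tmem52b (-1.26, adjusted p = 0.507) had 0.76 within slides, Cdcp1 (-1.13, adjusted p = 0.516) 0.79, and Gfpt2 (-0.995, adjusted p = 0.615) 0.26. Cdcp1, a transmembrane glycoprotein gene, had 2 further probes at -0.08 and -0.13. Nefh, a neurofilament gene, was -1.04 ± 0.23 (adjusted p = 0.442, second probe -1.20) with 0.21 within slides, and Rnd1, a small GTPase gene, -1.07 ± 0.27 (adjusted p = 0.516) with -0.04. Pramel39 (-1.25), Cd55b (-1.15) and Prl3b1 (-1.04) belong to families of similar genes, so that their probes may read relatives; their within-slide steps were 0.77, -0.28 and 0.18. The median of the ganglion markers was lowest on CT8 replicate 1: Snap25 read -2.78 and -3.99 at CT4 but -7.25 and -3.39 at CT8, and Prph -1.35 and -2.52 against -3.84 and -2.16. Of the 10 ganglion markers 6 were tested and 3 were well above background on all 4 arrays, with a summed level of 144 and 136 at CT4 and 158 and 153 at CT8 and a median of -2.25 and -3.25 against -5.54 and -2.77. Their part in the Nefh value was not tested.

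The cold-inducible RNA-binding protein genes, which respond to small drops of body temperature, were higher at CT8, 3 of 3 without overlap, against 19.2% of all genes. Rbm3 (probe on chromosome X, 6575680 to 6575739, mm7) read 4.37 and 4.15 at CT4 and 5.09 and 5.11 at CT8, the highest values of the 8 arrays from CT0 to CT12. The difference was 0.84 ± 0.12, 1.79-fold (limma adjusted p = 0.171), with -0.27 ± 0.23 on a dim second probe. Cirbp read 3.94 and 3.78 against 4.43 and 4.69 (0.70 ± 0.21, adjusted p = 0.643), and Srsf5 was 0.20 ± 0.16 higher (adjusted p = 0.883, second probe 0.17). From CT8 to CT12, a step that uses the same CT8 arrays, all 3 were lower again, with differences of -0.37, -0.50 and -0.60. Within slides their steps were 0.09 ± 0.19, -0.24 ± 0.16 and -0.39 ± 0.14, against the direction of the difference for Cirbp and Srsf5. Of 22 tested heat shock and chaperone genes, 2 were lower and none higher at an unadjusted p under 0.05, and 10 were lower and 1 higher without overlap, against 15.6% and 19.2% of all genes. Within slides the direction was the opposite, with 8 higher and none lower at that p, against 804 and 921 of all 18390 genes. Hspa8, the constitutive HSP70 gene, was -0.36 ± 0.14 (adjusted p = 0.734, second probe -0.34), and Fkbp4, an HSP90 partner gene, -0.25 ± 0.09 (adjusted p = 0.697, second probe -0.31), with 0.30 ± 0.11 and 0.068 ± 0.081 within slides. The count of 2 became 1 without CT4 replicate 1, 0 without CT4 replicate 2 and 4 without CT8 replicate 1, and without CT8 replicate 2 it was 2 beside 2 higher. It was 8 in the authors' table and 0 with median scaling. The list's median was -0.09, and it ranged from -0.17 to 0.10 over the other settings.

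Immediate early genes are induced within minutes of a stimulus. None of 23 tested was higher at CT8 without overlap, 10 were lower without overlap (15.6% of all genes were), and 4 were lower at an unadjusted p under 0.05 (3.42% of all genes were). Within slides 4 were higher and none lower at that p, against 804 and 921 of all 18390 genes, with a median of 0.17. Dusp1, a MAP kinase phosphatase gene, read 1.73 and 0.85 at CT4 and -0.25 and 0.52 at CT8 (-1.16 ± 0.38, adjusted p = 0.678). Ier3 read 1.09 and 0.68 against 0.31 and 0.09 (-0.68 ± 0.22, adjusted p = 0.665), and the stress-induced factor gene Atf3 -0.08 and 0.59 against -1.92 and -0.40 (-1.41 ± 0.54, adjusted p = 0.711). The CT8 replicates of Dusp1 and Atf3 were far apart, with replicate 1 the lower. The next step, which uses the same CT8 arrays, went the other way for each. Between CT8 and CT12 it was 2.24 for Dusp1, 1.11 for Ier3 and 2.15 for Atf3. The steps within slides were of the opposite sign, 0.65, 0.73 and 1.02. The list's median was -0.33, and -0.21 without CT8 replicate 1. Without CT8 replicate 1 or without CT4 replicate 1, 1 member was lower at that p. The fourth was Klf2 (-0.25 ± 0.10, limma adjusted p = 0.745).

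Of 28 fibroblast and matrix genes, 6 were lower and none higher at an unadjusted p under 0.05 (Spon2, Has2, Adamts4, Ccn1, Ccn2 and Mfap5), against 3.42% and 3.2% of all genes, and the median was -0.06. Without CT8 replicate 1 the count was 2, and without CT4 replicate 1 or without CT8 replicate 2 it was 3. Ccn1 and Ccn2 encode secreted proteins induced by mechanical and growth factor signals. Ccn1 read 3.33 and 0.81 at CT4 and 0.01 and 0.0028 at CT8, and Ccn2 4.12 and 2.28 against 1.72 and 1.39. The CT8 arrays were alike and the CT4 arrays far apart, with replicate 1 the high one. The differences of -2.06 ± 0.79 (adjusted p = 0.711) and -1.65 ± 0.55 (adjusted p = 0.678) became -0.80 and -0.73 without CT4 replicate 1. They were followed by 4.38 and 3.51 between CT8 and CT12, on the same CT8 arrays, and the within-slide steps were 0.84 ± 1.04 and 0.40 ± 0.78. Adipocyte markers (8 of 8 tested, all well above background on all 4 arrays) followed the same order at CT4, with a summed level of 732 on CT4 replicate 1 against 370 on CT4 replicate 2, 389 and 453 at CT8; their part in these values was not tested. Adamts4, an aggrecan-cleaving protease gene, was -0.96 ± 0.32 (adjusted p = 0.678), and Has2, a hyaluronan synthase gene, -0.60 ± 0.21 (adjusted p = 0.697, second probe -1.42), with -0.95 and -0.78 within slides. Ccn1 and Has2 lie outside the rule for named genes and were chosen after their values were seen.

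No collagen gene was at an unadjusted p under 0.05. Both CT8 arrays were above both CT4 arrays for 9 of 16 and below for 1, against 19.2% and 15.6% of all genes, with a median of 0.28. Within slides the list ran the other way, with a median of -0.30. There none was higher and 3 lower at that p, against 804 and 921 of all 18390 genes. Col6a1 (0.41 ± 0.21, adjusted p = 0.803) and Col6a2 (0.42 ± 0.23, adjusted p = 0.815, second probe 0.40) had the lowest p. Both had within-slide steps of the other sign, -0.30 and -0.40. The fibroblast markers (6 of 6 tested, all well above background) had a summed level of 765 and 666 at CT4 and 871 and 776 at CT8; their part in the collagen values was not tested. Of 27 cell cycle genes 17 were higher and 1 lower without overlap, against the same shares of all genes, with a median of 0.21. The 1 gene past an unadjusted p of 0.05 was Cdkn1a, the inhibitor, on the lower side. Within slides 1 was higher and 5 lower at that p, against the same 804 and 921 of all genes, with a median of -0.36.

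**Figure D4:**
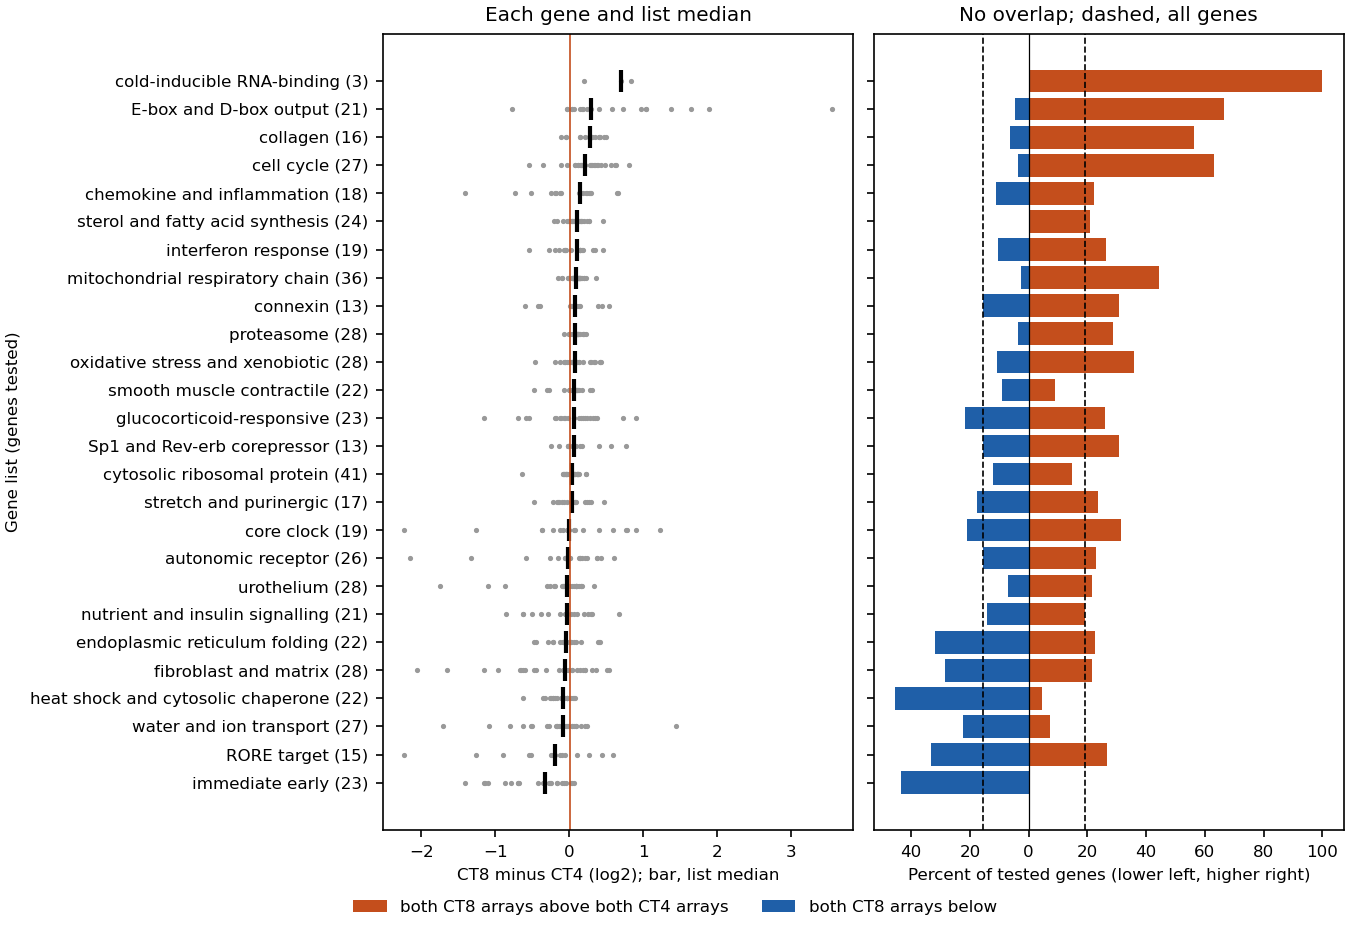
Gene lists, cell type markers left out, ordered by median difference. Left, CT8 minus CT4 (log2, horizontal) of each tested gene (grey points) with the list median (black bar) and the median of all genes (orange line); right, percent of tested genes with both CT8 arrays above (orange, to the right) or below (blue, to the left) both CT4 arrays, dashed lines marking 19.2% and 15.6% of all genes. By median, among the lists shown, the cold-inducible and clock output lists lie highest and the immediate early list (-0.33) lowest.

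For the gap junction question, Gja1, a connexin gene, read -1.36 and -1.19 at CT4 and -0.54 and -0.93 at CT8. The arrays did not overlap, and the difference was 0.54 ± 0.18 or 1.45-fold (range 1.28 to 1.64, limma adjusted p = 0.678). Without an array it ranged from 0.34 to 0.73, and within slides it was 0.73 ± 0.19. The difference from CT8 to CT12 was 0.0082. It was the 1 of 13 tested connexin-list genes at an unadjusted p under 0.05 (0 without CT4 replicate 1 or CT8 replicate 1); the list ran from -0.59 to 0.54 with a median of 0.08. Of the channels that sense stretch, Trpm7 (0.29 ± 0.07, adjusted p = 0.516) and Piezo2, a mechanosensitive cation channel gene (0.47 ± 0.14, adjusted p = 0.643), were the 2 of 17 listed genes at that p, both higher, with -0.05 ± 0.07 and 0.10 ± 0.18 within slides. Among 26 autonomic receptor genes, Ednrb, an endothelin receptor gene, was higher (0.37 ± 0.14, adjusted p = 0.726, second probe 0.22). Oxtr, the other gene at that p, was lower and well above background on 1 of 2 CT8 arrays. Counts at that p in the connexin, stretch and autonomic lists are read against 3.2% of all genes higher and 3.42% lower. The autonomic counts of 1 higher and 1 lower were close to those shares. No gene of the 22 smooth muscle contractile genes or the 28 urothelium genes was at an unadjusted p under 0.05, and their medians were 0.07 and -0.03.

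In the stress, immune and metabolic lists, counts at that p are read against 3.2% of all genes higher and 3.42% lower. Within-slide counts are read against 804 of 18390 higher and 921 lower. In the glucocorticoid-responsive list 3 of 23 were higher (Per1, Tsc22d3 and Mt1) and 3 lower (Dusp1, Cdkn1a and Gadd45g), with a median of 0.06. With 1 array left out 2 to 3 were higher and 1 (without CT4 replicate 1 or CT8 replicate 1) to 6 (without CT8 replicate 2) lower, and within slides 8 were higher and 1 lower. The detoxification list had 3 of 28 higher, among them Gsta2 (0.42 ± 0.14, adjusted p = 0.678), whose probe may also read Gsta1, and the metallothionein gene Mt1 (0.35 ± 0.14, adjusted p = 0.745, dim second probe 0.81). The 3 became 0 without CT4 replicate 1 or CT8 replicate 2, and within slides none was higher and 3 lower. In the endoplasmic reticulum list, Creld2 was lower (-0.44 ± 0.14, adjusted p = 0.652) and the stress factor gene Ddit3 higher (0.41 ± 0.17, adjusted p = 0.75). Il15, a cytokine gene, was 0.66 ± 0.16 higher (adjusted p = 0.516, second probe 0.15), and Il1b, another, -1.41 ± 0.48 (adjusted p = 0.678). Ifit3, an interferon-induced gene, was 0.46 ± 0.09 higher (adjusted p = 0.36, second probe 0.18) and Ifi44 -0.55 ± 0.20 (adjusted p = 0.697). Fbxo32, which encodes the ubiquitin ligase atrogin-1, was 0.67 ± 0.14 higher (adjusted p = 0.375) and Trib1 -0.63 ± 0.15 (adjusted p = 0.516), with 0.11 and 0.34 within slides.

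Of 36 respiratory chain genes 16 were higher and 1 lower without overlap, against 19.2% and 15.6% of all genes. The median was 0.09 and 1 gene, Ndufv2 (0.36 ± 0.08, adjusted p = 0.497), was at an unadjusted p under 0.05, which became 12 without CT8 replicate 2. Of 28 proteasome genes 2 were higher at that p (6 without CT8 replicate 2 and 0 with any other array left out), and of 41 ribosomal protein genes 1 was lower, with 5 higher without CT8 replicate 2. No gene of the 24 in sterol and fatty acid synthesis was at that p. In the reported fit 3.2% of all genes were higher and 3.42% lower at that p. Within slides 804 of 18390 genes were higher and 921 lower at that p. There no gene of these 4 lists was higher. The respiratory chain had 0 lower (median 0.009), the proteasome 3 (-0.07), ribosomal proteins 2 (-0.04) and sterol and fatty acid synthesis 7 (-0.23). Among the cell type markers, the slow and cardiac muscle list had a median of -0.12 and the skeletal muscle list -0.14. Tnnt2, a cardiac-type troponin gene, was 0.58 ± 0.10 higher (adjusted p = 0.289, dim second probe -0.21), at 5.46 and 5.44 against 6.16 and 5.89, and the titin-cap gene Tcap 1.56 ± 0.58 (adjusted p = 0.703), at 1.91 and 1.80 against 3.29 and 3.55. They were the 2 of 9 tested slow and cardiac muscle markers at that p, the other 7 having overlapping arrays, and the summed level was 121 and 109 at CT4 and 148 and 129 at CT8. Tcap also differed by 2.0002 between CT0 and CT4 and by 2.04 ± 0.52 in the within-slide step, while Tnnt2 had 0.03 ± 0.10 there. Hepatocyte markers had a median difference of 1.56, with 7 of 11 higher and 1 lower without overlap and none at that p. Of these 11, 9 were well above background on all 4 arrays. Their median level was -3.23 and -1.19 at CT4 and 0.23 and -0.60 at CT8. Their summed level was 27.3 and 24.6 at CT4 and 23.99 and 25.8 at CT8.

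**Figure D5:**
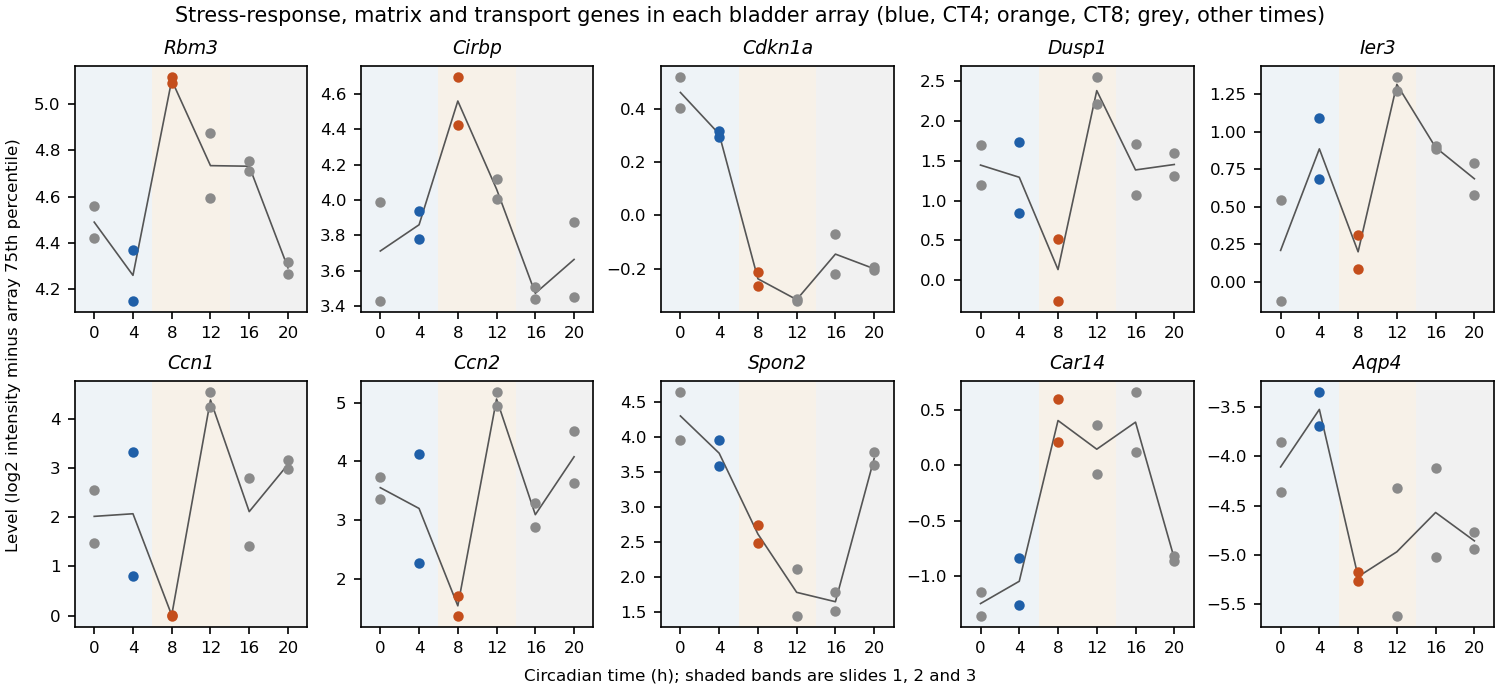
Level of 10 genes outside the core loop (log2 intensity minus the array's 75th percentile, vertical) on each array against circadian time in h (horizontal); points are arrays, lines join means of 2 arrays and shaded bands are slides. Rbm3 and Cirbp have their highest values at CT8 (orange); Dusp1, Ccn1 and Ccn2 are lowest at CT8 and highest at CT12, and Cdkn1a steps down between the slides of CT4 (blue) and CT8.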

How the data were processed

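Total RNA of bladder was measured on 12 Agilent 1-colour arrays. Per spot, the deposited scanner files give an intensity from Agilent Feature Extraction 10.5.1.1, per the file headers already background-corrected and detrended within an array, and not normalised between arrays. They also hold yes-or-no marks (well above background, outlier), used as deposited. The value table the authors deposited holds log2 values; the submitters' processing notes name R 2.8.1, and its normalisation is not given in the sources used here.

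The processed intensity was put on a log2 scale, outlier spots were dropped, spots of 1 probe were averaged and the array's 75th percentile over probes was subtracted. Of 41174 probes, 271 lacked a value on some array. Genes were named from RefSeq (GRCm38.p6, names only: 22919 probes by accession, 6552 by symbol, 3054 by synonym; 8378 kept the file's name), and probe coordinates are the files' own, on mm7. Each gene was represented by its brightest probe, and 18390 genes well above background on at least 4 arrays were tested, 3763 of them under an accession or other placeholder.

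A 1-way fit over the 6 times in limma 3.58.1 (R 4.3.3), with 6 residual degrees of freedom before the prior, gave CT8 minus CT4 and the neighbouring steps. Tests were two-sided, with Benjamini-Hochberg adjustment over all genes and a threshold of 0.05. The fit was also run on simulated data with independent noise and no slide effect. That run says nothing about telling time from slide. The gene lists, the members and the tests were chosen with earlier results of these data known. Named genes were every tested clock-list gene, the 12 largest differences each way among named genes that were well above background on all 4 arrays, without overlap and at an unadjusted p under 0.01 (none passed the adjusted threshold), and up to 3 genes of smallest p from each other list; not all are printed, and some are not reported here. Alternatives covered background correction, scaling, the authors' table, probe filters and choice, a replicate block, weights, the variance prior, 24 h waves and leaving out each array. List counts by setting were chosen after seeing the data. Summaries used Python 3.11.15. The number of arrays limits the precision.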

Additional observations from a re-analysis of the deposited data

How the results depend on the processing

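No gene passed the adjusted threshold in the reported fit, and none with quantile or median scaling, detection on all 4 arrays, every probe tested, the mean over a gene's probes, the 4 arrays alone, array weights or a wave with slide as a fixed block. Counts at the adjusted threshold (higher, then lower at CT8) were 3 and 1 with normexp background, 1 and 0 in the authors' table, 2 and 3 with no filter on dim probes, 4 and 1 with an intensity trend in the prior, 48 and 18 for a 24 h wave with no slide term, 22 and 8 with slide as a random block, and 0 to 2 and 0 to 1 with 1 array left out. Ciart was past it with normexp, in the authors' table, with no filter and with the trend, Tef, Tspan4 and Arntl with normexp and the trend, and Nr1d2 with the trend. At an unadjusted p under 0.05, 48.4% of genes were higher in the reported fit (589 of 1218) and 65.3% with median scaling (724 of 1108), where the median of all genes was 0.07. The replicate block gave 0 and 0 adjusted calls and 707 and 692 unadjusted ones; deviations of same-numbered CT4 and CT8 arrays correlated at r = -0.015, and those of the other pairs of times at -0.20 (CT0 and CT8) to 0.44 (CT12 and CT20), so the pairing was not borne out by every pair.

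Directions turned in 46 of the recomputed values, for 27 of the genes named, mostly within slides. For the wave with slide as a fixed block the steps of opposite sign were Cry1 0.38, Aqp4 0.47, Tmem52b 0.76, Cdcp1 0.79, Nefh 0.21, Gfpt2 0.26, Pramel39 0.77, Prl3b1 0.18, Cirbp -0.24, Srsf5 -0.39, Dusp1 0.65, Ier3 0.73, Atf3 1.02, Fkbp4 0.068, Hspa8 0.30, Ccn1 0.84, Ccn2 0.40, Col6a1 -0.30, Col6a2 -0.40, Trpm7 -0.047, Ddit3 -0.0020, Gsta2 -0.16, Mt1 -0.084, Trib1 0.34, Prph 0.59 and Snap25 0.85. With slide as a random block they were Cry1 0.18, Srsf5 -0.080, Dusp1 0.19, Ier3 0.36, Atf3 0.011, Hspa8 0.042, Ccn1 0.37, Ccn2 0.11, Col6a2 -0.00011 and Trib1 0.083, and with no slide term Cry1 0.14, Srsf5 -0.023, Dusp1 0.11, Ier3 0.29, Ccn1 0.29, Ccn2 0.062 and Trib1 0.036. The mean over probes gave Cry1 0.0037 and Cry2 -0.015, and Cry1 ranged from -0.38 to 0.12 with 1 array left out (0.12 without CT8 replicate 1). Differences that 1 array moved by over 1.5 times, beyond those given above, were Clock -0.14, Cry2 0.12, Prl3b1 -0.63 and Has2 -0.39 without CT4 replicate 2, Cd55b -0.63 and Dusp1 -0.71 without CT4 replicate 1, Tsc22d3 0.48, Atf3 -0.65, Piezo2 0.31, Ddit3 0.23, Klf2 -0.14, Prph -0.23 and Snap25 -0.0041 without CT8 replicate 1, and Nr1d1 0.25 without CT8 replicate 2. The cause was not tested. The other 1358 values kept their direction. Dim genes near background set the widest spread, and 2 arrays a time on separate slides limit every difference here.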

Other observations

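Genes with the largest differences of all were immunoglobulin, liver or neuronal transcripts read near background on part of the arrays, and were chosen after their values were seen. Ighg read -5.27 and -8.52 at CT4 and -2.91 and -1.70 at CT8, a difference of 4.59 (limma adjusted p = 0.678), and was well above background on 1 CT4 array and both CT8 arrays. Cps1, a urea cycle enzyme gene of liver, read -8.71 and -6.37 against -3.66 and -3.96 (3.73, limma adjusted p = 0.847) and was well above background at CT8 only. At the other end, Nnat, an imprinted gene of neural and endocrine tissue, read 0.04 and -1.29 at CT4 and -4.57 and -1.73 at CT8 (-2.53, limma adjusted p = 0.697), and Vip, a neuropeptide gene of autonomic nerves, -1.07 and -2.93 against -6.34 and -2.67 (-2.50, limma adjusted p = 0.843). For both, CT8 replicate 1 was the lowest of the 4 arrays.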
